A study of Sus scrofa with 12 samples.

Results

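The genes followed here were FABP4, LPL, ADIPOQ, LEP, SCD, FASN, PLIN2, PPARG, CEBPA and CD36, 10 genes that mark fat cells or handle fat inside muscle. They were chosen by name, and every probe set whose annotated symbol was one of these names was taken, which gave 17 of 24123 probe sets, for 9 of the 6765 genes with a probe set of 1 symbol. No probe set carried the symbol CD36, the fatty acid translocase, so CD36 was not analysed here. Of the 17 probe sets, 2 leptin probe sets are named as controls of the array and 5 were too dim to pass the signal filter, which left 10 tested probe sets for FABP4, LPL, LEP, SCD, FASN, PLIN2 and PPARG among 14399 tested in all. The samples were pieces of pig skeletal muscle taken at 4 ages, within 24 hours of birth (day 0) and on days 7, 14 and 21, with 3 samples per age that the labels call biological replicates. Each was measured on its own Affymetrix expression array, on which a probe set is a group of short probes for 1 transcript, from total RNA. No treatment is labelled, and the muscle, the breed, the sex and the litter of the piglets are not given in the sources used here.

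Fat in muscle lies both in adipocytes between the fibre bundles, the marbling of meat, and as lipid droplets inside the fibres. PPARG and CEBPA are the transcription factors that drive a precursor cell to become an adipocyte, and adiponectin (ADIPOQ) and leptin (LEP) are hormones that mature adipocytes secrete. Lipoprotein lipase (LPL) frees fatty acids from lipoproteins in the capillaries, FABP4 carries them inside adipocytes and also in capillary endothelium and macrophages, FASN makes fatty acids, SCD desaturates them, and PLIN2 coats lipid droplets in many cell types, muscle fibres included. In pieces of whole tissue, fewer cells of a type and less RNA per cell cannot be told apart.

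Over the 3 weeks, PLIN2 was lower at day 21 than at birth, and it was the 1 tested probe set of these genes that passed the test in any pair of ages. SCD and 1 FASN probe set had lower values at day 21 that did not pass. FABP4 and LPL had their highest age means at day 14, with signals that overlapped those of every other age. The plot of signals by age for the tested probe sets shows every array.

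**Figure D1:**
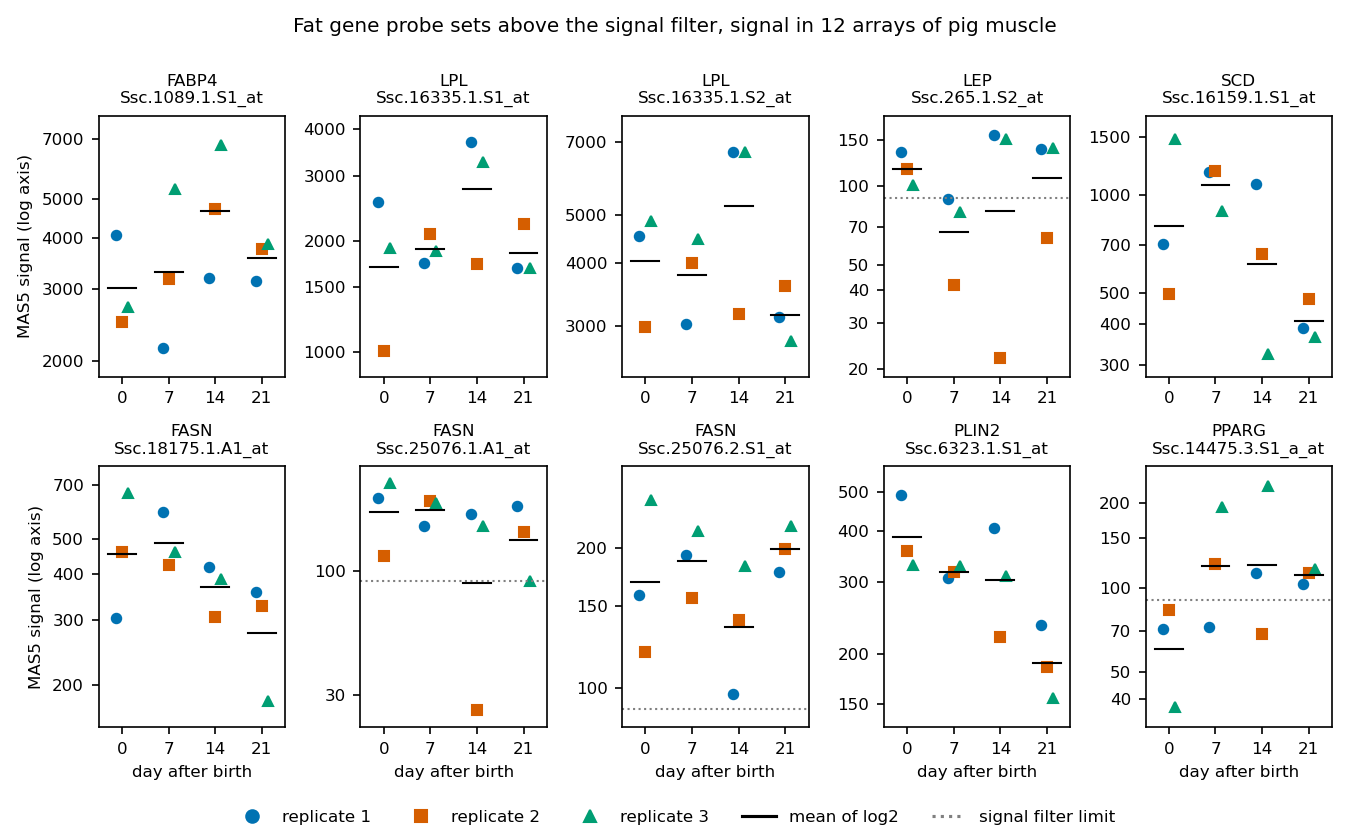
Signal (log axis) against day after birth for the 10 tested probe sets, 1 point per array, with the replicate number as the symbol and a bar at the mean of log2 for each age; the dotted line is the filter limit, a signal of 90.3. PLIN2 signals at day 21 lie between 155.1 and 235.3, all below the day 0 signals, while the ages overlap for FABP4 and LPL.

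The arrays had been scaled to 1 level before deposit, with the same 2% trimmed mean signal of 500.1, and their median signals lay between 146.2 and 172.6. Log2 signals of arrays of 1 age correlated at 0.912 or more across probe sets, and no pair of arrays exceeded 0.954. The day 0 arrays differed from the 9 later ones in their controls. The poly-A spike controls had a 3′ over 5′ ratio (log2) of 0.66 to 1.59 at day 0, with 1.59 in replicate 2, and 0.37 to 0.67 later. The hybridization controls averaged 12.20 at day 0 and 12.55 later (mean log2 signal), and the 28S ribosomal RNA probe sets averaged 11.50 and 12.48. These measures moved with every comparison against day 0, and their part in those results was not tested beyond the 2 refits given in the closing part, in which the arrays were scaled to the hybridization controls or the poly-A ratio entered as a covariate.

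PLIN2, the droplet coat protein also called adipophilin, had signals of 490.3, 358.2 and 330.0 at day 0 and of 306.9, 317.4 and 327.6 at day 7. At day 14 they were 408.0, 220.1 and 310.4, and at day 21 they were 235.3, 185.5 and 155.1. All 3 day 21 signals lay below all 6 signals of days 0 and 7, and all 3 day 7 signals lay just below the lowest of day 0. Day 14 spanned the widest range, from within the day 0 range down to the day 21 range. From day 0 to day 21 PLIN2 fell by 1.03 ± 0.26 on the log2 scale (SE, n = 3 and 3, 95% interval −1.59 to −0.47), which is 2.05-fold, with a limma adjusted p of 0.0221 (Benjamini-Hochberg, all tested probe sets together). The call was lost, at adjusted p of 0.0534 to 0.0886, without day 0 replicate 1 (−0.86), day 21 replicate 2 (−1.02) or day 21 replicate 3 (−0.89), and the adjusted p ranged from 0.00954 to 0.0886 over all the alternatives. Without day 0 replicate 2, the array with the highest poly-A ratio, the change was −1.09 with a limma adjusted p of 0.0446.

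The change in PLIN2 was not placed in a single week. It was −0.29 ± 0.26 from day 0 to day 7 (limma adjusted p 0.525), −0.07 ± 0.26 from day 7 to day 14 (0.995) and −0.68 ± 0.26 from day 14 to day 21 (0.9998, with an unadjusted p of 0.0205). From day 7 to day 21 the difference was −0.75 ± 0.26 with an adjusted p of 0.651, in a comparison where 0.00694% of all tested probe sets passed. These comparisons share arrays and are not independent of each other.

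SCD, the desaturase that makes monounsaturated fatty acids, had signals of 705.4, 493.8 and 1481.3 at day 0 and of 1169.6, 1178.0 and 890.3 at day 7. They were 1077.7, 655.5 and 324.6 at day 14 and 390.0, 478.3 and 364.7 at day 21. The 3 day 21 signals were close together and lay below every signal of days 0 and 7, and day 14 spread over most of the whole range. SCD was lower at day 21 than at day 7 by a log2 difference of −1.39 ± 0.41 (95% interval −2.28 to −0.50), but the limma adjusted p was 0.596 with an unadjusted p of 0.00493. Against day 0 the difference was −0.97 ± 0.41 with an adjusted p of 0.146, and it was −1.32 (adjusted p 0.0776) without day 0 replicate 2, the lowest SCD signal of its age, and −0.53 (0.394) without day 0 replicate 3, the highest.

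FASN, the fatty acid synthase, had 4 probe sets, and they did not follow each other. The brightest, Ssc.18175.1.A1_at, had signals of 303.9, 460.2 and 667.8 at day 0, of 590.0, 424.8 and 461.1 at day 7, of 419.7, 306.4 and 387.4 at day 14, and of 357.7, 327.1 and 180.3 at day 21. Its day 7 signals lay above those of days 14 and 21 with no overlap, and the day 0 signals spanned nearly all of them. The log2 difference of this probe set was −0.82 ± 0.31 from day 7 to day 21 (limma adjusted p 0.685) and −0.72 ± 0.31 from day 0 to day 21 (0.157). Without day 21 replicate 3, the lowest signal, they were −0.51 and −0.41.

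The other FASN probe sets that passed the filter showed no such separation of day 7 from days 14 and 21. By mean log2 signal, Ssc.25076.1.A1_at was also highest at day 7 (7.49), with 7.46, 6.47 and 7.08 on days 0, 14 and 21. Ssc.25076.2.S1_at was highest at day 21 (7.64). Ssc.25076.1.A1_at lay between 90.7 and 234.1 in 11 arrays and at 25.9 in day 14 replicate 2, and its day 21 to day 0 difference was −0.38 ± 0.60. Ssc.25076.2.S1_at lay between 97.2 and 253.8, and its difference was 0.24 ± 0.32, of the other sign. The limma adjusted p values of these differences were 0.727 and 0.681, and the fourth FASN probe set, Ssc.16368.1.S1_at, stayed under the filter limit on average, with signals of 37.0 to 98.4. Log2 signals of FASN probe sets correlated over the 12 arrays at Pearson r of −0.19 to 0.45. A statement on FASN therefore rests on the probe set chosen.

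LPL had 2 probe sets that ran together over the 12 arrays, with a Pearson r of 0.84 and a Spearman rho of 0.88. The brighter, Ssc.16335.1.S2_at, had signals of 4533.5, 2988.1 and 4855.4 at day 0, of 3022.0, 4014.9 and 4474.4 at day 7, of 6673.5, 3170.1 and 6697.9 at day 14, and of 3129.2, 3602.3 and 2789.7 at day 21. Replicates 1 and 3 of day 14 were the highest of the 12 arrays and replicate 2 of day 14 was among the lower ones, so the ages overlapped. The other, Ssc.16335.1.S1_at, had 2551.5, 1008.0 and 1911.6 at day 0, 1741.2, 2085.5 and 1877.9 at day 7, 3693.8, 1730.0 and 3267.1 at day 14, and 1689.2, 2220.7 and 1687.7 at day 21. The same day 14 replicates, 1 and 3, were again the highest, and day 0 replicate 2 was the lowest.

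For LPL, the log2 difference of day 14 from day 0 was 0.70 ± 0.32 for Ssc.16335.1.S1_at (95% interval 0.00 to 1.39, limma adjusted p 0.175) and 0.37 ± 0.28 for Ssc.16335.1.S2_at (adjusted p 0.421). When each array was left out, the first ran from 0.32 (without day 0 replicate 2) to 1.03 (without day 14 replicate 2) and the second from 0.15 to 0.73. From day 14 to day 21 the differences were −0.57 ± 0.32 and −0.72 ± 0.28, each with an adjusted p of 0.9998, and with an unadjusted p of 0.0222 for the second. Between birth and day 21 they were 0.12 ± 0.32 (95% interval −0.57 to 0.82) and −0.35 ± 0.28 (−0.96 to 0.25).

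FABP4, the fatty acid carrier known as aP2, had signals of 4061.2, 2500.4 and 2715.5 at day 0 and of 2155.5, 3174.8 and 5285.4 at day 7. At day 14 they were 3191.5, 4726.9 and 6762.3, and at day 21 they were 3139.7, 3759.6 and 3877.7. The lowest and the second highest signal of the 12 arrays both came from day 7, and no pair of ages was separate. The largest log2 difference from birth was 0.63 ± 0.32 at day 14 (95% interval −0.06 to 1.32, limma adjusted p 0.215), and the difference at day 21 was 0.24 ± 0.32 (−0.44 to 0.93, adjusted p 0.667). When each array was left out these ran from 0.36 to 0.90 and from 0.11 to 0.46. The SD of log2 signal within ages was 0.47 for FABP4 and the SD of its 4 age means was 0.27, while for PLIN2 these were 0.31 and 0.44. An age mean averages several arrays and varies less than single arrays do, so the SD within ages and that of age means are not like measures.

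PPARG, the master regulator of adipocyte differentiation, was measured close to the filter limit. Its signals were 71.5, 83.5 and 37.5 at day 0, 72.5, 121.3 and 194.4 at day 7, 112.7, 68.2 and 230.1 at day 14, and 103.4, 113.1 and 116.5 at day 21. All 3 day 0 signals lay below the filter limit and below the 3 day 21 signals, and days 7 and 14 overlapped both. The log2 difference from birth was 0.98 ± 0.50 at day 7, 0.99 ± 0.50 at day 14 and 0.87 ± 0.50 at day 21, with limma adjusted p values of 0.246, 0.212 and 0.284. The 95% interval at day 21 ran from −0.21 to 1.95. When each array was left out the differences ran from 0.63 to 1.34, from 0.53 to 1.41 and from 0.52 to 1.10, and without day 0 replicate 3, the lowest signal, they were 0.63, 0.65 and 0.52. CEBPA, its partner factor, was below the filter on both of its probe sets, with signals of 14.5 to 124.9 on one and of 5.9 to 64.2 on the other, in no order of age.

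ADIPOQ was also below the filter, with signals of 57.0, 19.0 and 60.1 at day 0, of 34.6, 39.0 and 88.6 at day 7, of 105.1, 177.5 and 139.7 at day 14, and of 87.3, 197.0 and 51.0 at day 21. All 3 day 14 signals lay above all 6 signals of days 0 and 7, and day 21 overlapped every age. Among the tested probe sets, to which ADIPOQ does not belong, 15.5% lay higher without overlap at day 14 than at day 0. Against day 7 it was 6.81%. In the fit with no signal filter, the log2 difference of ADIPOQ from birth was 1.77 ± 0.63 at day 14, with a limma adjusted p of 0.118 and an unadjusted p of 0.0135, and 1.25 ± 0.63 at day 21, with an adjusted p of 0.293. The plot of the dim and control probe sets shows these signals.

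**Figure D2:**
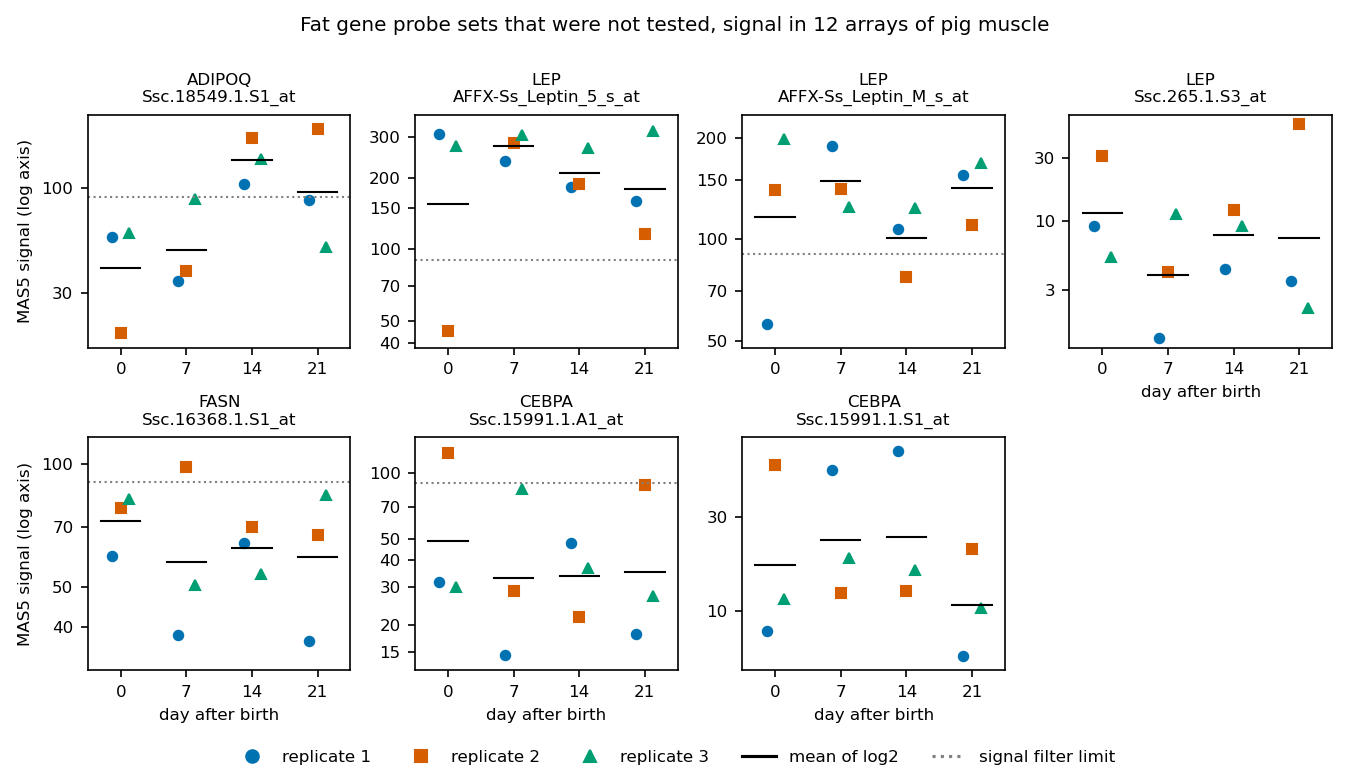
Signal (log axis) against day after birth for the 7 probe sets that were not tested, 1 point per array, with the replicate number as the symbol, a bar at the mean of log2 for each age and the filter limit of 90.3 as a dotted line. ADIPOQ at day 14 lies between 105.1 and 177.5, above all day 0 and day 7 signals, and the CEBPA signals scatter between 5.9 and 124.9.

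LEP was measured by 4 probe sets that did not follow each other. The 1 that was tested, Ssc.265.1.S2_at, had signals of 134.4, 116.4 and 101.0 at day 0, of 88.9, 42.0 and 79.9 at day 7, of 157.4, 22.0 and 150.9 at day 14, and of 138.7, 63.4 and 140.2 at day 21. The day 7 signals lay below those of day 0, and replicate 2 was the lowest of its age on days 7, 14 and 21. Its log2 difference of day 7 from day 0 was −0.80 ± 0.66 and that of day 21 was −0.12 ± 0.66, with limma adjusted p values of 0.485 and 0.932. The second leptin probe set, Ssc.265.1.S3_at, gave signals of 1.3 to 53.8. The 2 leptin probe sets named as controls gave 45.2 to 315.8 and 56.1 to 198.5, and Pearson r between LEP probe sets ran from −0.59 to 0.22 over the 12 arrays.

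Counted together, 0 of the 10 tested probe sets passed limma's F test for any change over the 4 ages, against 8.88% of all tested probe sets. At an unadjusted p under 0.05 there were 2 of 10, against 24.6% of all. They were PLIN2, with a limma p of 0.00981 and a Benjamini-Hochberg adjusted p of 0.0794, and SCD, with 0.0292 and 0.150. Between day 21 and day 0, 1 of 10 passed, PLIN2, in the lower direction, where 4.9% of all tested probe sets passed lower and 6.61% higher. At an unadjusted p under 0.05, 3 of 10 differed in that comparison, against 27.6% of all. At an unadjusted p under 0.05, in limma's F test and between day 21 and day 0, the count of fat probe sets was thus near the share of the whole array. This does not extend to the other comparisons, which follow.

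In the other comparisons limma with Benjamini-Hochberg adjustment called 0 of the 10 probe sets. From day 0 to day 7 none had an unadjusted p under 0.05, where 9.4% of all passed after adjustment (5.76% higher and 3.64% lower) and 25.1% before. From day 0 to day 14, 1 of 10 had one (LPL Ssc.16335.1.S1_at), where 12.3% of all passed after adjustment (6.74% higher and 5.6% lower) and 28.6% before. From day 7 to day 21, 3 had one (SCD, PLIN2 and FASN Ssc.18175.1.A1_at), against 6.66% of all. From day 14 to day 21, 2 had one (PLIN2 and LPL Ssc.16335.1.S2_at), against 3.03%, and from day 7 to day 14 none had one, against 5.95%. In these last 2 comparisons 0% and 0.00694% of all tested probe sets passed after adjustment.

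The median log2 difference of the 10 probe sets was 0.12 from day 0 to day 7, where that of all tested probe sets was 0.00. It was −0.31 from day 0 to day 14 (all 0.02) and −0.24 from day 0 to day 21 (all 0.02), with 6 of 10 lower in each. From day 7 to day 14 it was −0.02, with 5 of 10 lower. It was −0.19 from day 7 to day 21 and −0.40 from day 14 to day 21, with 7 of 10 lower in each (all 0.01 in these 3). The 10 probe sets stand for 7 genes, with FASN counted 3 times and LPL 2 times. All tested FASN probe sets were lower at day 14 than at day 0, so these counts are not counts of genes. Values of the 2 ages did not overlap for 2 of the 10 in the lower direction between days 21 and 0 (SCD and PLIN2), against 13.7% of all tested, and for 1 in the higher direction (PPARG), against 15.3%, or 3 of 10 against 29.1% in either direction. Between days 21 and 7 they did not overlap for 3 of 10, all lower (SCD, PLIN2 and FASN Ssc.18175.1.A1_at), against 7.57% lower, 8.49% higher and 16.1% in either direction. Between days 7 and 0 it was 2 of 10, both lower (PLIN2 and LEP), against 13.7% lower, 14.9% higher and 28.5% in either direction. All PPARG signals at day 0 and all LEP signals at day 7 lay below the filter limit of 90.3. Both probe sets passed the filter on their mean over all arrays, through the ages with higher signals. Their places in these counts are therefore not evidence of a change. Between days 14 and 7 it was 1 of 10, lower (FASN Ssc.18175.1.A1_at), against 7.33% lower and 6.81% higher. Between days 14 and 0, and between days 21 and 14, it was 0 of 10, against 29.5% and 8.44% in either direction (4.41% higher and 4.03% lower in the second).

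**Figure D3:**
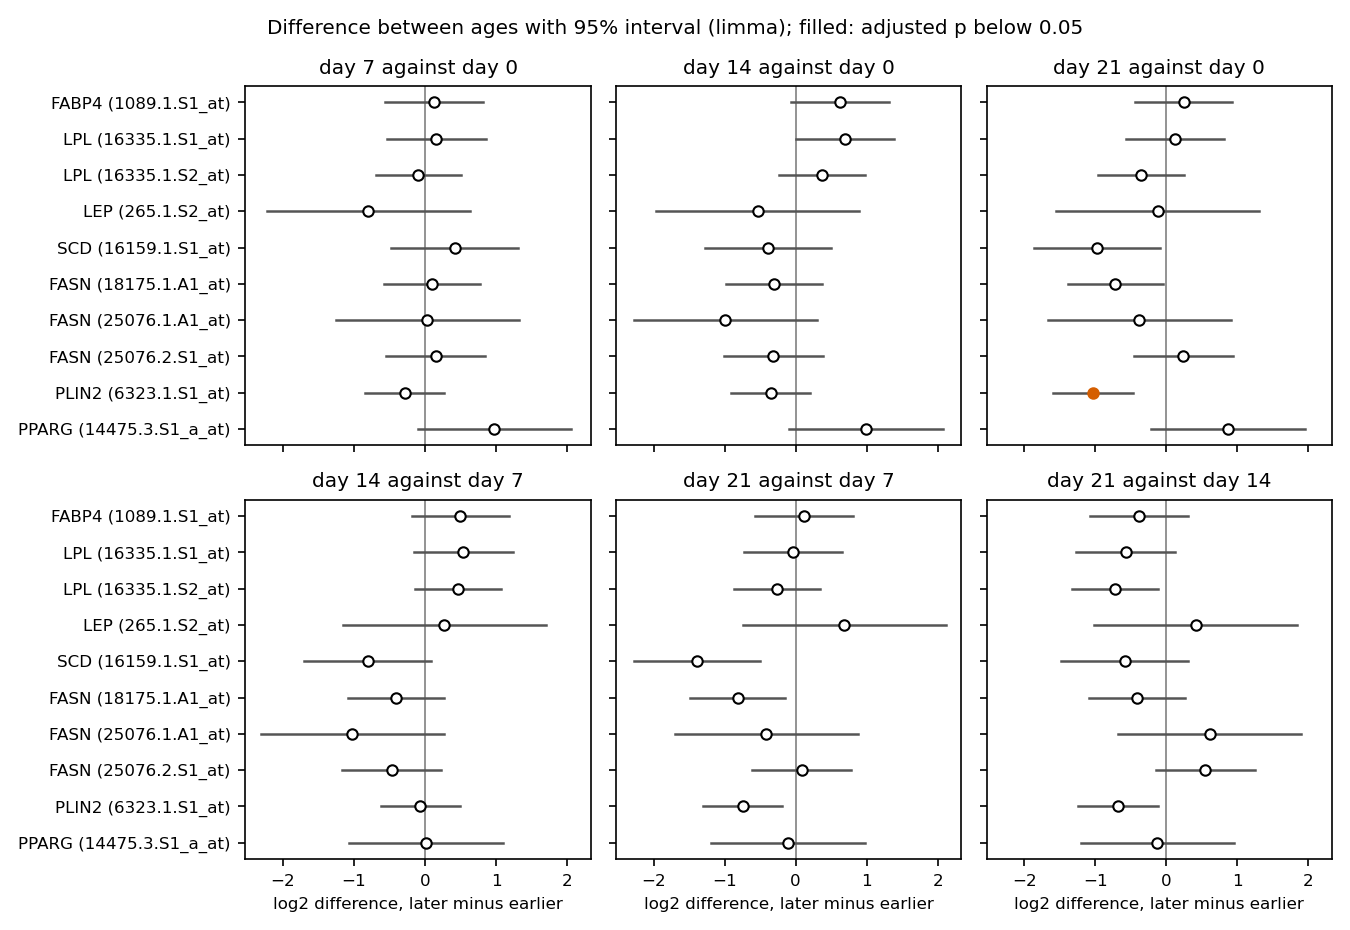
Log2 difference in signal with its 95% interval from limma for the 10 tested probe sets, in the comparisons of ages that the panels name; a filled point has an adjusted p below 0.05. The single filled point is PLIN2 at day 21 against day 0, −1.03, and the interval of LEP, the widest at day 21 against day 0, runs from −1.55 to 1.31.

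The tested genes were also compared with each other over the 12 arrays, each by its brightest tested probe set, which gave 21 pairs. SCD and FASN had the highest Pearson r, 0.67 (permutation p 0.0129, adjusted over the 21 pairs 0.248), with a Spearman rho of 0.66 (permutation p 0.0237, adjusted 0.439). Without the 2 arrays farthest from the SCD median it was 0.67, and after the age means were taken out it was 0.39. FABP4 and PPARG had an r of 0.64 (permutation p 0.0237, adjusted 0.248) and a rho of 0.46 (permutation p 0.132, adjusted 0.439). That r was 0.45 without the 2 arrays farthest from the FABP4 median and 0.65 within ages. The r within ages that was largest in size was −0.72, for SCD and PPARG, and values within ages were not tested. Over the 12 arrays SCD and PPARG had an r of −0.47 (permutation p 0.121, adjusted 0.388). The permutations shuffled all 12 arrays without regard to age, so they do not separate shared changes with age from other covariation. No pair passed the adjustment, so no pair of these genes was shown to vary together.

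The genes whose log2 signals were most like those of PLIN2, the tested gene with the lowest p over the ages, were HSDL2, AFF1 and WDR26 among 5295 genes with a tested probe set. Their Pearson r over the 12 arrays was 0.96, 0.91 and 0.89, and within ages it was 0.91, 0.89 and 0.68. Spearman rho was 0.96, 0.90 and 0.77. The arrays that are the points of these correlations share their scaling and their ages, and the genes were picked for this likeness, so the values are a description.

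Other genes of fat handling were taken from 7 lists, and their counts are set against 5296 genes with 1 tested probe set each, of which 11.2% passed the F test. Between day 21 and day 0, 7.36% of those genes rose and 7.1% fell. In fatty acid synthesis and desaturation, the list nearest to FASN and SCD, 0 of 12 tested genes passed limma's F test (0 at an unadjusted p under 0.05) and 0 differed between day 21 and day 0 (2 at an unadjusted p under 0.05). Its median log2 difference was −0.03, against −0.02 over all genes.

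In fatty acid uptake and binding, the list nearest to LPL and FABP4, 3 of 14 genes rose and 0 fell between day 0 and day 21, with a median difference of 0.00. They were ANGPTL4, a secreted inhibitor of lipoprotein lipase, CAV1, a coat protein of caveolae, and VLDLR, a lipoprotein receptor. ANGPTL4 had signals of 221.7, 561.4 and 240.2 at day 0 and of 666.4 to 1248.6 at day 21, with no overlap, and rose by a log2 difference of 1.67 ± 0.34 (limma adjusted p 0.00829). CAV1 rose by 0.53 ± 0.13 (adjusted p 0.0228) and VLDLR by 0.75 ± 0.22 (0.0436). ANGPTL4 passed in this comparison under every alternative, whereas VLDLR passed in 7 of 23 and CAV1 in 15 of 23, and the count of the list was 1 without day 21 replicate 1 or 3. The adjusted p of CAV1 was 0.0601 without day 21 replicate 1 and 0.102 without replicate 3, and scaling to the hybridization controls gave CAV1 a difference of 0.15 (0.507). CAV1 was lost as well with no filter, quantile normalization, median centring, no variance trend or only the 6 arrays compared. The call of VLDLR was lost, at adjusted p of 0.0543 to 0.161, without any 1 of 9 arrays, which were replicates 1 and 2 of day 0, all of day 7, replicate 3 of day 14 and all of day 21.

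Among adipogenic transcription factors and cofactors, the list nearest to PPARG and CEBPA, 1 of 18 genes rose between day 0 and day 21 and 0 fell, with a median difference of −0.04. It was RXRG, a retinoid X receptor of the family with which PPARs pair, whose signals were 145.1, 201.4 and 443.2 at day 0, 777.3 to 1391.4 at day 7 and 445.3 to 1280.9 at day 21. RXRG rose by 1.66 ± 0.42 (limma adjusted p 0.0228), and by 2.14 ± 0.42 between day 0 and day 7 (0.00907). Both calls were lost with the poly-A ratio as a covariate (adjusted p 0.0876 at day 21 and 0.107 at day 7), and the day 21 call also with only the 6 arrays compared (0.0795). The day 21 call was lost too, at adjusted p of 0.0633 to 0.0974, when replicate 1 or 2 of day 0, or replicate 1 or 3 of day 21, was left out.

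In triglyceride synthesis, 1 of 13 genes rose between day 0 and day 21 and 0 fell, with a median difference of −0.02. GPD1, the enzyme that makes glycerol 3-phosphate for triglycerides and also serves the glycerol phosphate shuttle, had signals of 1067.2, 1117.9 and 4639.8 at day 0 and of 7364.6 to 14675.1 on all later days. Its rise was 2.87 ± 0.42 by day 21 (limma adjusted p 0.00161) and 2.40 ± 0.42 by day 7 (0.00524). The day 21 rise passed under every alternative, and the day 7 rise was lost with the poly-A ratio as a covariate (adjusted p 0.105).

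In the list of droplet coat and triglyceride breakdown, to which PLIN2 is nearest, 2 of 9 genes rose between day 0 and day 21 and 0 fell, with a median difference of 0.07. FITM1, which promotes droplet formation in muscle, rose by 0.73 ± 0.20 (limma adjusted p 0.0354), and MGLL, the monoglyceride lipase, by 0.96 ± 0.23 (0.0193). PLIN2 differed in the lower direction while the 2 genes of this list that passed differed in the higher one. The genes of the list that did not pass went both ways. ABHD5, RAB18, BSCL2 and LIPE were lower (−0.88, −0.47, −1.07 and −0.45), and PLIN3, PNPLA2 and HILPDA were higher (0.18, 0.07 and 0.96). FITM1 passed in 11 of 23 alternatives and MGLL in 18 of 23, with both lost under hybridization scaling and with only the 6 arrays compared, and FITM1 also with the poly-A covariate (adjusted p 0.0944). FITM1 was lost, with adjusted p of 0.106, 0.0854, 0.052, 0.0516 and 0.147, without day 0 replicate 1, day 0 replicate 2, day 7 replicate 2, day 21 replicate 2 and day 21 replicate 3. MGLL was lost, with 0.0581, 0.069 and 0.0776, without day 0 replicate 1, day 21 replicate 1 and day 21 replicate 3.

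Of adipokines and their receptors, the list nearest to ADIPOQ and LEP, 1 of 10 genes rose and 0 fell between day 0 and day 21, with a median difference of 0.26. ADIPOR2, a receptor for adiponectin, had signals of 1092.6 to 1243.2 at day 0, of 1755.1 to 1858.2 at day 7, of 1962.8 to 2505.7 at day 14 and of 1943.2 to 2182.4 at day 21, and rose by 0.86 ± 0.15 (limma adjusted p 0.00369). It passed in 22 of 23 alternatives, and scaling to the hybridization controls gave 0.48 with an adjusted p of 0.0603.

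Among PPAR target genes of fat use in muscle, 2 of 14 genes rose between day 0 and day 21, ANGPTL4 and UCP3, and 2 fell, ACADVL and HADHA, with a median difference of −0.07. UCP3, a mitochondrial uncoupling protein of muscle, had signals of 250.6 to 355.7 at day 0 and of 621.6 to 1295.3 at day 21, and rose by 1.73 ± 0.25 (limma adjusted p 0.00159). ACADVL and HADHA, enzymes of long-chain fatty acid oxidation, fell by 0.66 ± 0.15 (adjusted p 0.0142) and 0.61 ± 0.16 (0.0254). The UCP3 call held under every alternative. That of ACADVL was lost without day 21 replicate 3 (adjusted p 0.0531) and with only the 6 arrays compared (0.0849). That of HADHA was lost with the poly-A covariate (0.118), with only the 6 arrays compared (0.119), with no variance trend (0.056), and without day 0 replicate 2 or 3 or any 1 of the day 21 replicates (0.0547 to 0.0833).

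**Figure D4:**
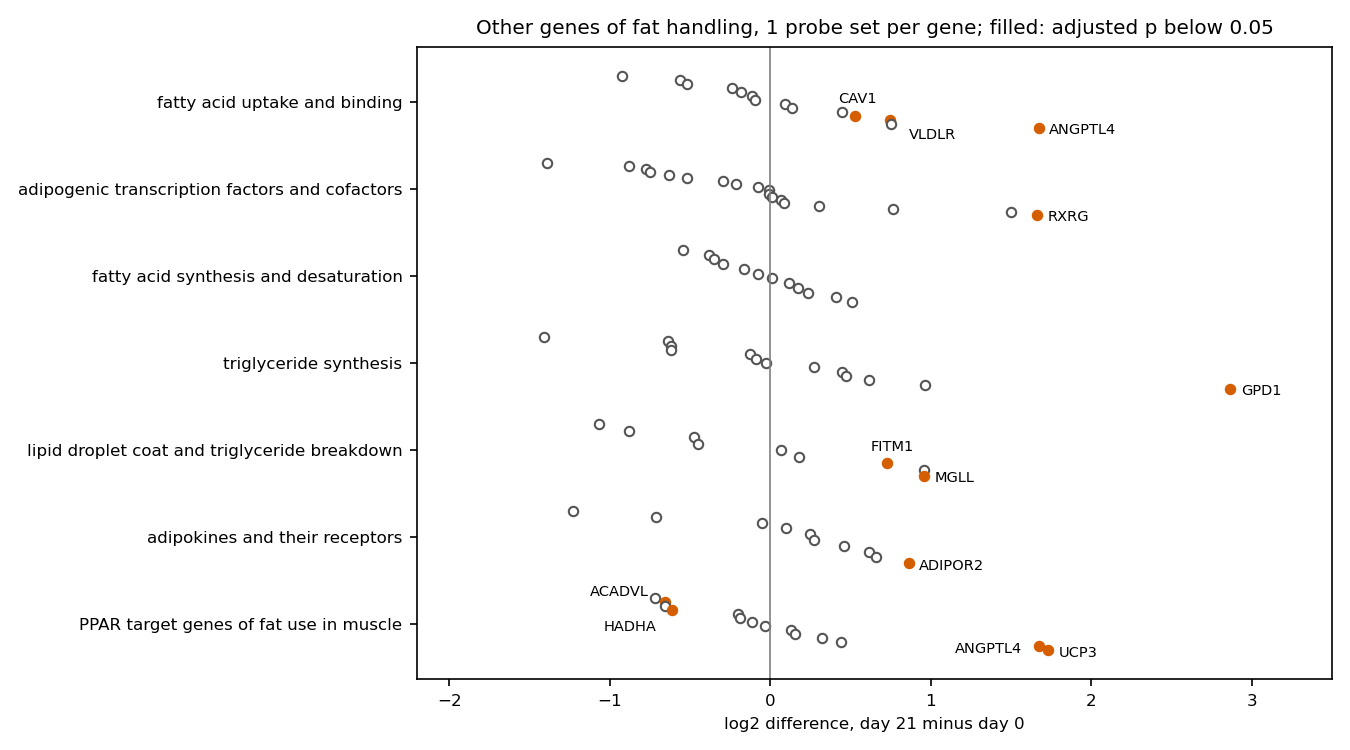
Log2 difference of day 21 minus day 0 for the tested genes of the 7 lists, 1 probe set per gene and 1 line of points per list, with filled and named points at an adjusted p below 0.05. GPD1 stands farthest to the right at 2.87, and the list of fatty acid synthesis and desaturation has no filled point.

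Within the lists, the calls between day 0 and day 7 were 2 higher and 1 lower for uptake, 1 and 1 for transcription factors, 1 and 1 for triglyceride synthesis, 1 and 1 for droplets, 3 and 0 for adipokines and 2 and 2 for PPAR targets, where 6.51% of all genes rose and 5.21% fell. Between day 0 and day 14 they were 4 and 0, 2 and 1, 2 and 0, 2 and 0, 1 and 0, and 2 and 1 in the same order, where 7.25% rose and 8.55% fell. The synthesis list had 0 calls in both. Most of these counts moved when 1 array was left out. The 3 adipokine genes called at day 7 became 0 without any 1 of the day 7 arrays, as did the 1 higher call for droplets, and the 2 higher calls for uptake became 0 without day 7 replicate 2. The lower calls for uptake, transcription factors, triglyceride synthesis and droplets became 0 without day 0 replicate 2 or any 1 day 7 array, among other arrays. The PPAR targets became 1 higher without day 7 replicate 2 and 1 lower without day 0 replicate 2 or day 7 replicate 1 or 2. At day 14 the 4 uptake genes became 2 without any 1 array of days 0 or 14, and the 2 droplet genes 0 without day 14 replicate 2 or 3. The 2 higher transcription factors became 1 or 0 whichever array was left out. They became 0 without day 0 replicate 2 or day 14 replicate 2 or 3. The 1 lower transcription factor became 0 without day 0 replicate 2 or 3, day 7 replicate 2, day 14 replicate 2 or 3, or any 1 day 21 array. The 2 triglyceride genes became 1 without day 0 replicate 2 or day 14 replicate 1 or 3, and the 2 higher PPAR targets 1 without day 0 replicate 1 or day 14 replicate 1 or 2. Between days 7 and 14, 14 and 21, and 7 and 21, limma called 0 genes of any of the 7 lists, as it did of all 5296 genes.

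The tissue label was checked against markers. All 14 muscle fibre markers with a probe set passed the filter, and their summed signal per array was 313890 to 436097 at day 0 and 465427 to 590796 at day 21. Between day 0 and day 21, 6 of the 14 rose and 0 fell in limma, where 7.36% of all genes rose and 7.1% fell. The number that rose was 4 to 11 when each array was left out. Of 14 adipocyte markers, 9 had a probe set and 7 passed the filter. ADIPOQ and CIDEA were below it, and PLIN1, CIDEC, AQP7, TRARG1 and THRSP had no probe set by symbol. The summed signal of the 7 was 4989.1 to 6177.3 at day 0, 4416.6 to 7368.9 at day 7, 6022.9 to 10561.1 at day 14 and 5702.3 to 6334.9 at day 21. FABP4 and CFD, a complement protease of adipocytes, made up most of these sums. In limma's F test over the ages 0 of the 7 passed (1 at an unadjusted p under 0.05), where 11.2% of the 5296 genes passed. LEP, FABP4 and PPARG are among the 7 and are also genes followed here, so this count partly repeats the results above.

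Among the marker lists of cells other than muscle fibres and adipocytes, the endothelial list had the most calls between day 0 and day 21. Of 12 endothelial markers 4 rose (CDH5, TIE1, CLDN5 and ERG) and 1 fell (ENG) between day 0 and day 21 in limma, where 7.36% of all genes rose and 7.1% fell. Their summed signal was 6603.3 to 7440.0 at day 0 and 7977.7 to 11609.6 at day 21, with no overlap. The number that rose was 2 without day 21 replicate 1 or 3, and 2 under hybridization scaling, while CDH5, ERG and ENG were called under every alternative. Of 8 macrophage markers 1 rose and 0 fell, with sums of 2180.0 to 3034.5 and of 2257.6 to 4516.3 that overlapped, and the call, of LAPTM5, was lost with the poly-A covariate and with only the 6 arrays compared. Of 7 fibro-adipogenic markers 1 rose, PDGFRB (adjusted p 0.0488), and 0 fell, with overlapping sums of 17491.5 to 34619.8 and of 19483.0 to 41399.7. PDGFRB passed in 4 of 23 alternatives, with differences of 0.15 to 0.62, and was lost without any 1 array other than day 0 replicate 3. Of 3 erythroid markers 1 rose and 1 fell, the second lost with the poly-A covariate and without day 0 replicate 1 or any 1 day 21 array. The part of these cells in the values of PLIN2, FABP4, LPL, PPARG and the other fat genes was not tested.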

How the data were processed

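Total RNA of 12 pieces of pig skeletal muscle was hybridized to 1 array each. The deposited values are linear signal intensities per probe set, made by the authors with MAS5 per the submitters' processing notes; its version is not given in the sources used here, and scanner files and detection calls were not used here. The log2 of the signals was analysed without another normalization. From 24123 probe sets, 124 array controls were dropped, then the 40% with the lowest mean log2, leaving 14399. Symbols came from the platform's probe table (10099 probe sets with 1 symbol, 198 with several, 13826 with none), and the symbols of all 9 genes found were the same by Entrez identifier in RefSeq.

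limma 3.58.1 in R 4.3.3 fitted a mean per age over all 12 arrays, with eBayes and a mean-variance trend. Calls were made at a Benjamini-Hochberg adjusted p of 0.05 over all tested probe sets, for the F test over ages and for each pair of ages. A gene was represented by its brightest tested probe set. The code was tested on simulated data. Correlations between genes used 100000 permutations (1e+05).

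From each list of fat handling genes, up to 4 genes were named that passed the F test, in order of adjusted p. VLDLR and MGLL fell outside this rule and were named after their values were seen. The droplet genes ABHD5, RAB18, BSCL2, LIPE, PLIN3, PNPLA2 and HILPDA did not pass the F test and were also named outside the rule. The genes followed and the lists were chosen with earlier results of these data known. The 3 samples per age limit the precision; nothing says whether they came from separate litters, and p-values measure the spread between these samples. Alternatives changed the filter, the scaling, an offset, the trend, array weights, a replicate block, the poly-A ratio as a covariate, the arrays used and the probe sets averaged.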

Additional observations from a re-analysis of the deposited data

How the results depend on the processing

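Scaling the arrays to the 27 hybridization control probe sets shifted the median of all tested probe sets by −0.31, −0.37 and −0.38 (log2) at days 7, 14 and 21 against day 0, and median centring by −0.10, −0.12 and −0.11. Calls at day 21 against day 0 were 952 higher and 705 lower as deposited, 397 and 2486 under hybridization scaling, and 739 and 1032 under median centring. At day 7 they were 829 and 524, 358 and 1636, and 604 and 736, and at day 14 they were 971 and 806, 396 and 2554, and 733 and 1226. Under hybridization scaling PLIN2 was lower at day 21 than at day 0 (−1.41, limma adjusted p 0.00954). SCD (−1.35 ± 0.42, 0.0361) and FASN Ssc.18175.1.A1_at (−1.10 ± 0.34, 0.0382) were called as well. These differences were tested against 0 and contain the shift of −0.38 of all tested probe sets. As deposited, SCD (−0.97, limma adjusted p 0.146) and FASN Ssc.18175.1.A1_at (−0.72, 0.157) were not called.

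The number of the 10 fat probe sets called at day 21 against day 0 was 3 under hybridization scaling and 0 with array weights (PLIN2 −0.97, limma adjusted p 0.0535), with the poly-A ratio as a covariate (−1.10, 0.0532) and with only the 6 arrays compared (−1.03, 0.066). It was 0 to 1 when each array was left out. The number passing the F test was 1 (PLIN2) under hybridization scaling. The same-numbered arrays did not deviate together across all tested probe sets (correlations of −0.198 to 0.112 over 18 pairs). Such correlations cannot show whether same-numbered samples share a factor that acts on some genes, and the labels do not say. With the replicate block 1 probe set was called, PLIN2, at a limma adjusted p of 0.0215. The causes of these changes were not tested.

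Of 1392 refitted differences, 58 had another sign, none of them called. Under hybridization scaling FABP4 was −0.18 at day 7 and −0.14 at day 21 against day 0, LPL Ssc.16335.1.S1_at −0.15 and −0.26, FASN Ssc.18175.1.A1_at −0.20 at day 7, FASN Ssc.25076.1.A1_at −0.27 at day 7, FASN Ssc.25076.2.S1_at −0.16 and −0.14, and PPARG −0.044 from day 7 to day 14. With the poly-A covariate FABP4 was −0.049, LPL Ssc.16335.1.S1_at −0.54, SCD −0.15, FASN Ssc.25076.1.A1_at −0.63 and FASN Ssc.25076.2.S1_at −0.29 at day 7 against day 0. At day 21 LPL Ssc.16335.1.S1_at was −0.35 against day 0 and 0.19 against day 7, FASN Ssc.25076.2.S1_at was −0.062, and PPARG was −0.019 from day 7 to day 14. FASN Ssc.25076.1.A1_at was −0.067 at day 7 under quantile normalization and −0.064 under median centring, where PPARG was −0.050 and −0.0045 from day 7 to day 14. With probe sets averaged per gene, FASN was −0.012 at day 7 and 0.17 from day 14 to day 21, and LPL was 0.033 at day 7.

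When each array was left out, differences of either sign ran as follows. At day 7 against day 0 FABP4 ran from −0.21 to 0.44, FASN Ssc.18175.1.A1_at from −0.19 to 0.38, FASN Ssc.25076.1.A1_at from −0.27 to 0.24, FASN Ssc.25076.2.S1_at from −0.10 to 0.45, LPL Ssc.16335.1.S1_at from −0.22 to 0.45 and LPL Ssc.16335.1.S2_at from −0.31 to 0.070. At day 14 against day 0 LEP ran from −1.02 to 0.40 and SCD from −0.80 to 0.068. At day 21 against day 0 LPL Ssc.16335.1.S1_at ran from −0.26 to 0.41, LEP from −0.31 to 0.26 and FASN Ssc.25076.2.S1_at from −0.011 to 0.53. From day 7 to day 14 LEP ran from −0.21 to 1.21, PLIN2 from −0.28 to 0.17 and PPARG from −0.45 to 0.43. From day 14 to day 21 LEP ran from −0.52 to 0.90, PPARG from −0.54 to 0.34 and FASN Ssc.25076.1.A1_at from −0.28 to 1.10. From day 7 to day 21 FABP4 ran from −0.20 to 0.45, LPL Ssc.16335.1.S1_at from −0.17 to 0.033, FASN Ssc.25076.2.S1_at from −0.043 to 0.19 and PPARG from −0.47 to 0.24. Signals near the filter limit of 90.3, as for PPARG, LEP, ADIPOQ and CEBPA, limit what can be read from these genes.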
